A study of Mus musculus with 6 samples.

Results

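The genes described here are the Wnt ligands, their receptors and the secreted or membrane-bound proteins that tune how much ligand reaches a receptor. They were chosen by symbol among the protein-coding genes of the count tables, by a rule that uses no expression value but was written with earlier results of these data known: all Wnt, Frizzled, Sfrp, Dkk, Rspo and Lgr4 to Lgr6 genes, together with Frzb, Lrp5, Lrp6, Ror1, Ror2, Ryk, Wif1, Porcn, Wls, Znrf3, Rnf43, Kremen1, Kremen2 and Cthrc1. This gave 58 members of 53801 genes, in 7 classes: 19 Wnt ligands, 10 Frizzled receptors, 5 co-receptors and alternative receptors, 2 proteins of ligand processing and secretion, 9 genes of the R-spondin axis, 7 secreted ligand-binding modulators, and 6 Dickkopf and Kremen genes. A minimum count left 54 of the 58 for testing. The other 4, Wnt1, Wnt8a, Wnt8b and Rspo4, had at most 24 counts in any sample.

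The study asked what excess Dlx2, a homeodomain transcription factor of the first pharyngeal arch, does to the transcriptome of the forming upper jaw. RNA was extracted from whole E12.5 maxillary prominences, the paired facial swellings that give rise to the upper jaw and the palatal shelves, and 3 independent RNA samples were sequenced per genotype. The labels give the strain of both genotypes as C57BL/6. The methods of the study give the wild-type mice and the background of the transgene as C57BL/6J. The Dlx2OE embryos (Wnt1cre; Rosa26Dlx2/-) carried 1 copy of a CAG-LSL-Dlx2-3xFlag cassette in the Rosa26 locus, opened by a Cre under the Wnt1 promoter. This Cre acts in neural crest cells and their descendants, which form most of the facial mesenchyme, and not in the surface epithelium that was dissected with it. The sources give the RNA as coming from 6 or from 7 littermates, so that the number of embryos behind a sample is not known, and the p-values measure the spread between these samples. The labels name no control that carries Cre alone.

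Wnt proteins are lipid-modified ligands, acylated by Porcn and carried to the cell surface by Wls. A ligand that binds a Frizzled receptor together with Lrp5 or Lrp6 stabilizes β-catenin, which works with Tcf and Lef factors in the nucleus, whereas ligands such as Wnt5a act largely through Ror2 and Ryk and the planar polarity machinery. Sfrp proteins, Frzb and Wif1 bind ligands outside the cell, and Dkk1 with Kremen blocks Lrp5 and Lrp6. R-spondins acting on Lgr receptors remove the ubiquitin ligases Znrf3 and Rnf43 that clear Frizzleds from the membrane. In the face, several ligands are made by the epithelium and received by the mesenchyme beneath it, and loss of Wnt9b or Wnt3 is known to disturb fusion of the lip.

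Total counts on genes ranged from 30332754 to 31308813 in WT and from 26155500 to 30570784 in Dlx2OE. Dlx2 itself was 42.9, 35.0 and 45.2 CPM (counts scaled to a common library total, adjusted by the trimmed mean of M values, TMM) for WT samples 1 to 3, and the Dlx2OE samples stood apart at 119, 131 and 123 CPM. The share of read pairs that fell in no annotated gene was 5.03 to 5.43% in WT and 5.75, 7.81 and 14.7% in Dlx2OE samples 1 to 3. Its part in the results was not tested.

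In the Dlx2OE maxillary prominences 7 of the 16 tested ligands were called higher and none lower, and the abundant ligand decoy Sfrp2 was called lower together with Cthrc1 and Fzd8. Most receptors were not called in either direction. Of the 54 tested members, 11 were called higher and 3 lower, a call being an adjusted p under 0.05 in the quasi-likelihood test of edgeR. The 11 higher members were 20.4% of those tested, against 2.99% of all 17514 genes tested, and the 3 lower were 5.56%, against 3.46%. Past a log2 fold change of 1 in size, 9 members were higher and 2 lower, with a background of 1.50% and 1.62% of all genes. In 26 members, or 48.1%, the samples of both genotypes did not overlap, against 34.1% of all genes. The median log2 fold change over the tested members was 0.082, beside 0.0028 over all genes, and 33 members were positive and 21 negative. The class medians ran from 1.45 in the ligands to -0.53 in the secreted ligand-binding modulators. DESeq2, a second count test, called 15 members higher and 5 lower, the 14 members above among them, with a background of 5.54% higher and 7.21% lower of the 19047 genes to which it gave an adjusted p. The calls depended most on WT samples 1 and 2: without WT sample 1, 2 members were called higher and 1 lower, and without WT sample 2, none and 1. The whole transcriptome moved with them, to 180 and 79 called genes, against 1130 with all samples (0.424% higher and 0.567% lower of all genes without WT sample 1, 0.216% and 0.222% without WT sample 2). Without Dlx2OE sample 1, 5 members were called lower, with 5.33% of all genes, and without Dlx2OE sample 2, 1 was, with 0.400% of all genes. Without Dlx2OE sample 2 or 3, 4 of the 14 called members lost their call each time. The called genes of the whole transcriptome were then 213 and 315. Every called member kept its direction in each of these fits.

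**Figure D1:**
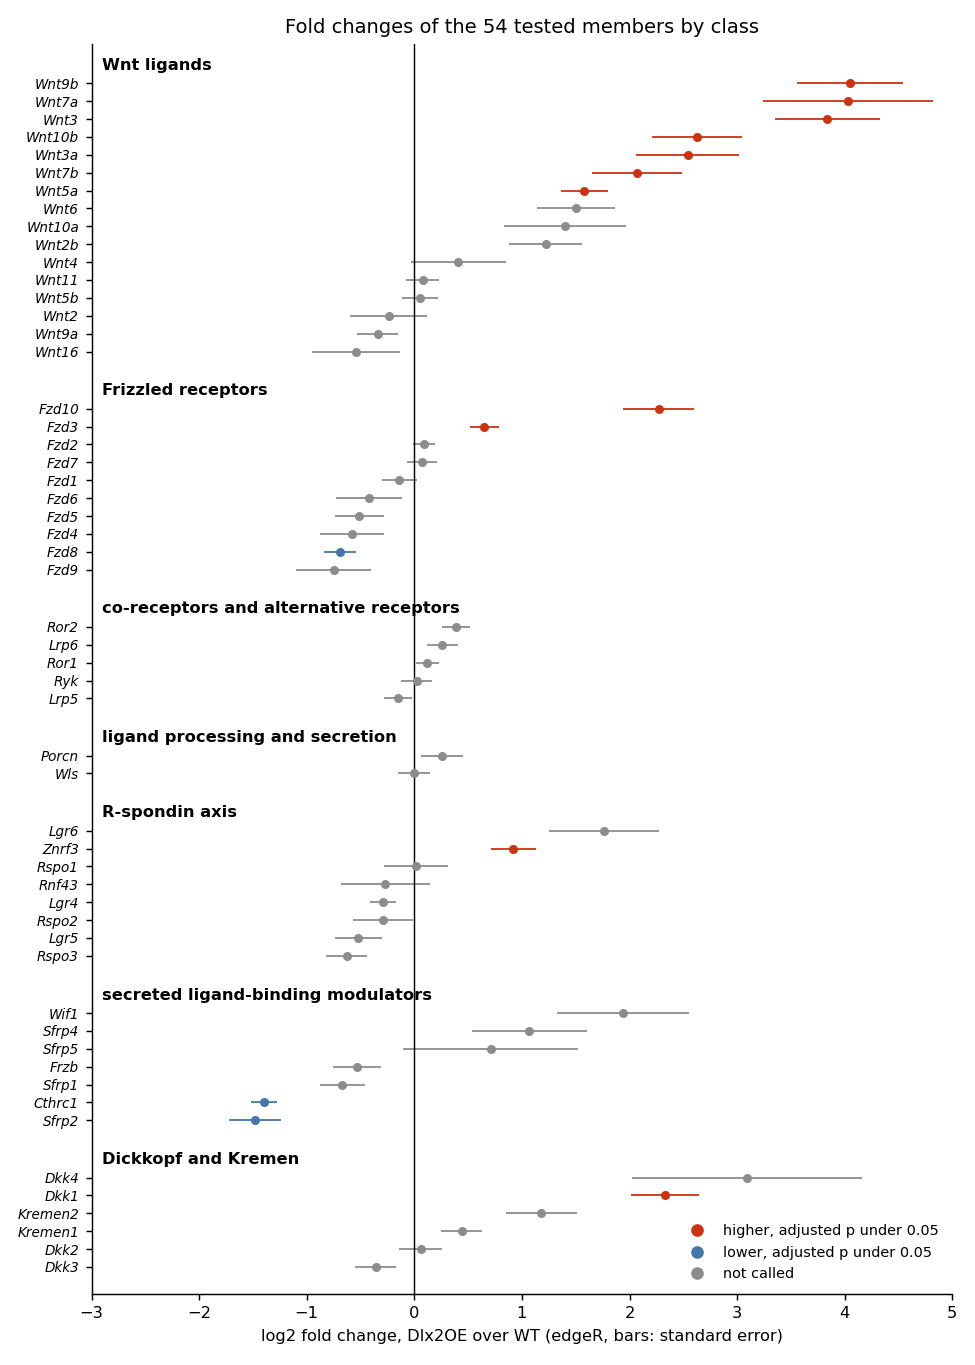
Log2 fold change (x axis, Dlx2OE over WT) of the 54 tested members (y axis), grouped by class and sorted within it. Points are edgeR estimates from 3 samples per genotype and bars are standard errors. Red points are the 11 called higher, blue points the 3 called lower and grey points the members not called. The ligand points reach 4.05 for Wnt9b, while those of the co-receptors lie close to 0.

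The largest changes among the members were in Wnt9b, Wnt7a and Wnt3, ligands with low levels in WT tissue. Wnt9b, a ligand of the facial ectoderm (chromosome 11, 103727364 to 103749821, reverse strand, GRCm38), was at 1.67, 2.09 and 4.23 CPM across WT samples 1 to 3, and Dlx2OE samples 1 to 3 were at 73.6, 32.6 and 27.2 CPM, a log2 fold change of 4.05 ± 0.49 (SE, n = 3 per genotype, adjusted p = 0.00939). The lowest Dlx2OE sample stood well above the highest WT sample. Wnt3, its neighbor on the same chromosome (103774150 to 103817957, forward strand), was at 0.923, 1.59 and 2.21 CPM in WT and at 38.4, 15.2 and 14.5 CPM in Dlx2OE, a log2 fold change of 3.84 ± 0.49 (adjusted p = 0.0104). In both genes Dlx2OE sample 1 was the highest, and the other Dlx2OE samples were close to each other. Wnt7a, a ligand known from ectoderm of the limb and face (chromosome 6, 91363981 to 91411363, reverse strand), was at 0.615, 0.133 and 1.06 CPM in WT and at 19.4, 4.27 and 6.02 CPM in Dlx2OE, a log2 fold change of 4.03 ± 0.79 (adjusted p = 0.0306). The WT counts behind Wnt7a were as low as 4 in WT sample 2, so the size of its change is the least certain of the called ligands. Without WT sample 2 the adjusted p rose to 0.0640 for Wnt9b, 0.0663 for Wnt3 and 0.108 for Wnt7a, and without WT sample 1 to 0.106 for Wnt7a, with log2 fold changes between 3.07 and 4.71 over all fits that left out 1 sample.

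The ligands Wnt10b, Wnt3a and Wnt7b rose by smaller factors. Wnt10b, a ligand of placodes and of bone-forming cells (chromosome 15, 98770712 to 98778150, reverse strand), was at 4.75, 4.15 and 3.66 CPM in WT and at 44.9, 18.9 and 14.2 CPM in Dlx2OE, a log2 fold change of 2.63 ± 0.42 (adjusted p = 0.0184). Wnt3a, a canonical ligand close in sequence to Wnt3 (chromosome 11, 59248033 to 59290752, reverse strand), was at 0.615, 1.76 and 1.31 CPM in WT and at 11.4, 4.36 and 5.83 CPM in Dlx2OE, a log2 fold change of 2.54 ± 0.48 (adjusted p = 0.0280). Wnt7b, a ligand close in sequence to Wnt7a (chromosome 15, 85535437 to 85582473, reverse strand), was at 12.9, 23.8 and 25.9 CPM in WT and at 147, 53.8 and 63.2 CPM in Dlx2OE, a log2 fold change of 2.07 ± 0.42 (adjusted p = 0.0327). None of these 3 ligands overlapped between genotypes, and each was highest in Dlx2OE sample 1. Without WT sample 2 their adjusted p was 0.0934, 0.0868 and 0.129, and without WT sample 1 it was 0.0664, 0.0807 and 0.101. Wnt3a was also not called without Dlx2OE sample 3 (adjusted p = 0.0526).

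Wnt5a, the main ligand of the Ror2 and planar polarity branch and strongly expressed in distal facial mesenchyme (chromosome 14, 28504750 to 28527448, forward strand), had the highest mean level per kilobase of exon of all ligands in both genotypes. It was at 79.1, 84.4 and 91.4 CPM in WT and at 350, 225 and 186 CPM in Dlx2OE, a log2 fold change of 1.58 ± 0.22 (adjusted p = 0.0125). The WT samples lay close together, and the lowest Dlx2OE sample was well above the highest of them. Without WT sample 1 or 2 its adjusted p was 0.0572 or 0.0772. Wnt6, the second most abundant ligand by mean level per kilobase of exon, was at 17.8, 24.6 and 21.4 CPM in WT and at 101, 37.2 and 42.4 CPM in Dlx2OE, without overlap. It missed the edgeR threshold (log2 fold change 1.50 ± 0.36, adjusted p = 0.0505) and passed that of DESeq2 (adjusted p = 0.0217). Wnt2b and Wnt10a were likewise called by DESeq2 alone, with log2 fold changes of 1.22 and 1.40 (adjusted p = 0.00316 and 0.0401 with DESeq2, 0.0685 and 0.148 with edgeR). Wnt2b was at 2.46, 6.21 and 3.24 CPM in WT and at 10.9, 8.57 and 8.23 CPM in Dlx2OE, without overlap. Wnt10a was at 1.13, 3.05 and 1.60 CPM in WT and at 9.32, 2.29 and 3.66 CPM in Dlx2OE, where sample 2 fell within the WT range.

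The other 6 tested ligands were not called by either test. By mean level per kilobase of exon, Wnt4 ranked below Wnt5a and Wnt6 alone among the ligands in WT. It was at 22.8, 51.7 and 35.3 CPM in WT and at 83.8, 26.5 and 35.2 CPM in Dlx2OE. Only Dlx2OE sample 1 lay outside the WT range. Wnt11 (19.2 to 24.1 CPM in WT, 19.5 to 26.5 in Dlx2OE) and Wnt5b (12.4 to 16.3 and 12.7 to 16.0) had overlapping ranges. Wnt11 and Wnt5b are, like Wnt5a, known as ligands of the β-catenin-independent branch. Wnt9a was 8.85 to 10.2 CPM in WT and 6.05 to 8.78 CPM in Dlx2OE, a log2 fold change of -0.34 ± 0.19 (adjusted p = 0.262), and its genotypes did not overlap. Wnt2 (1.71 to 3.19 CPM in WT, 1.31 to 2.57 in Dlx2OE) and Wnt16 (1.88 to 3.02 and 1.03 to 2.87) were low in every sample. Of the untested ligands, the counts of Wnt1 were 2, 0 and 0 (WT) and 3, 1 and 3 (Dlx2OE), those of Wnt8a were 0, 3 and 2 (WT) and 2, 4 and 1 (Dlx2OE), and those of Wnt8b were 3, 7 and 5 (WT) and 0, 2 and 0 (Dlx2OE). A floor of 3 counts corresponds to 0.0955 to 0.111 CPM in these libraries and covers counting error only.

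**Figure D2:**
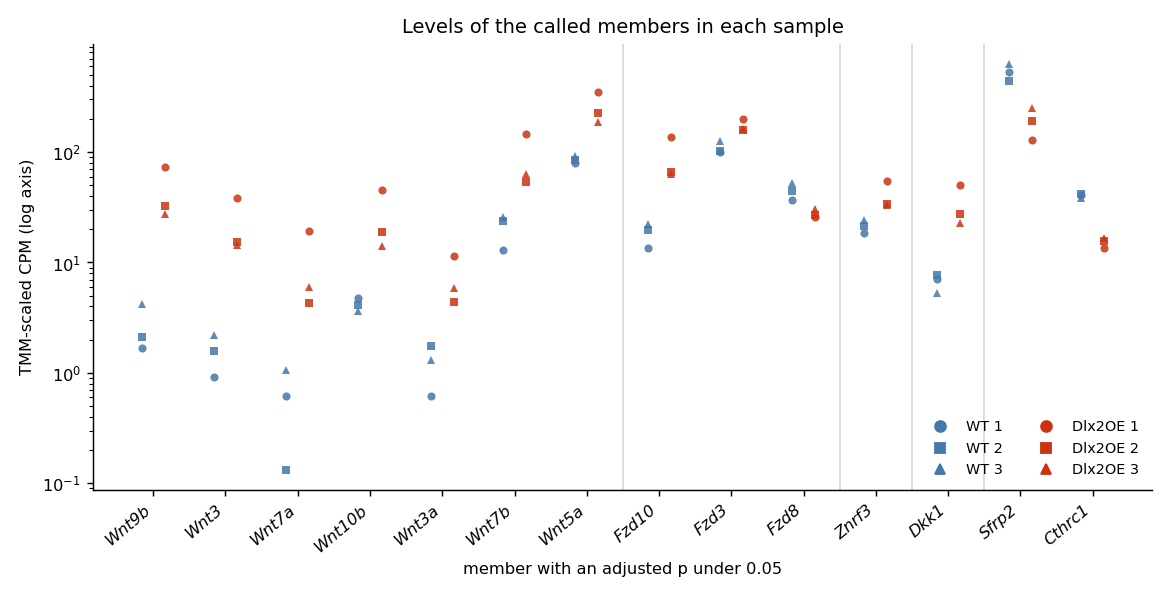
TMM-scaled CPM on a log axis (y axis) of the 14 called members (x axis) in each of the 6 samples. Blue symbols are WT and red symbols Dlx2OE, with circles, squares and triangles for samples 1, 2 and 3, and vertical lines part the ligands, the Frizzled receptors, Znrf3, Dkk1, and Sfrp2 with Cthrc1. All 11 higher members are highest in Dlx2OE sample 1, and no genotypes overlap.

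Levels per kilobase of exon were summed to describe the ligand pool. They allow only a rough comparison between genes, since the length is that of the merged exons of all annotated transcripts. The 19 ligands together were at 43.4, 60.1 and 56.3 CPM per kb in WT and at 215, 99.5 and 101 CPM per kb in Dlx2OE, 2.61 times as much on average, without overlap. An exact two-sided permutation test of 3 against 3 samples cannot go below p = 0.10, so this sum was not called. Without Wnt5a the ligand sum was 33.3 to 49.3 CPM per kb in WT and 70.8 to 171 in Dlx2OE. The make-up of the pool also differed. Wnt9b made up 1.10% ± 0.49 of it in WT and 6.92% ± 0.86 in Dlx2OE (SD, n = 3 each), and Wnt3 0.944% ± 0.302 and 5.13% ± 0.60. Wnt7b went from 7.85% to 12.6% of the pool, while Wnt4 went from 16.0% to 7.97% and Wnt9a from 5.47% to 1.77%. Wnt5a, with 20.7% and 24.4%, and Wnt6, with 18.2% and 19.1%, had the first and second mean share in both genotypes, but not in each sample: Wnt4 was first in WT sample 2 with 20.5%, and Wnt6 was above Wnt5a in Dlx2OE sample 1, with 21.3% against 20.8%. As shares of 1 sum these values are not independent of each other.

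**Figure D3:**
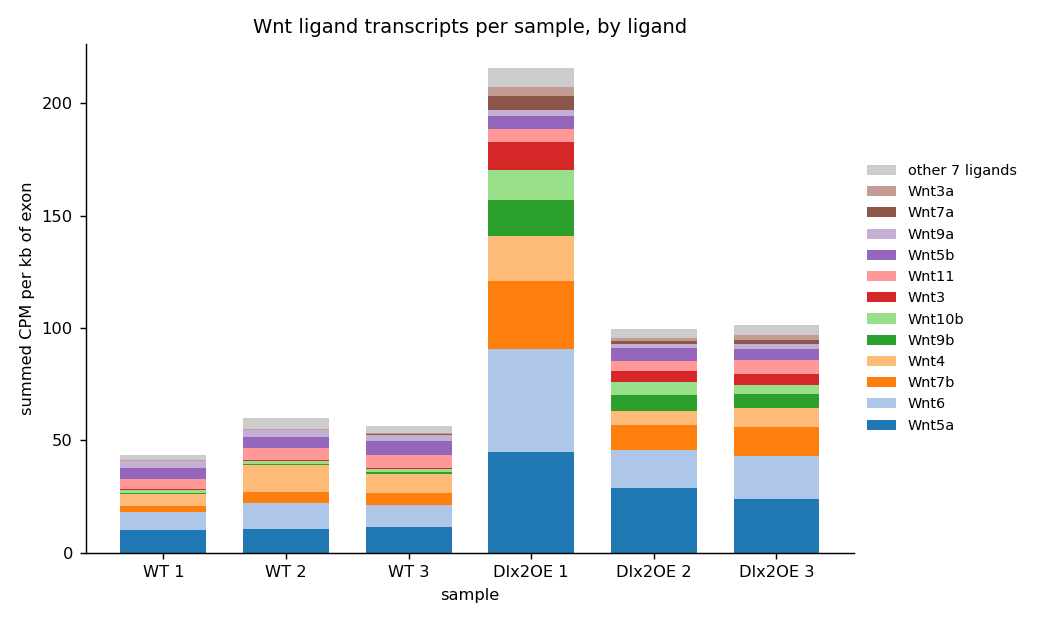
Summed level of the 19 ligands in each sample (y axis, CPM per kb of exon; x axis, the 6 samples), stacked by ligand, with the 12 ligands drawn in color and the other 7 in grey. The bars reach 43.4 to 60.1 in WT and 99.5 to 215 in Dlx2OE. Wnt9b, Wnt10b and Wnt3 form thicker bands in each Dlx2OE sample than in any WT sample.

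Several ligand genes lie next to each other, with no other protein-coding gene between them, and the neighbors did not all behave alike. Wnt9b and Wnt3 are 24328 bp apart and point away from each other, and both were called higher with the sizes given above. Wnt3a and Wnt9a, 16175 bp apart and also divergent, did not match: Wnt3a was called higher and Wnt9a was not called, with a log2 fold change below 0. Wnt10b was called higher, whereas its divergent neighbor Wnt1, 11706 bp away, stayed at 0 to 3 counts in every sample. Wnt6 and Wnt10a, 6193 bp apart on the same strand of chromosome 1, were both called by DESeq2 alone.

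**Figure D4:**
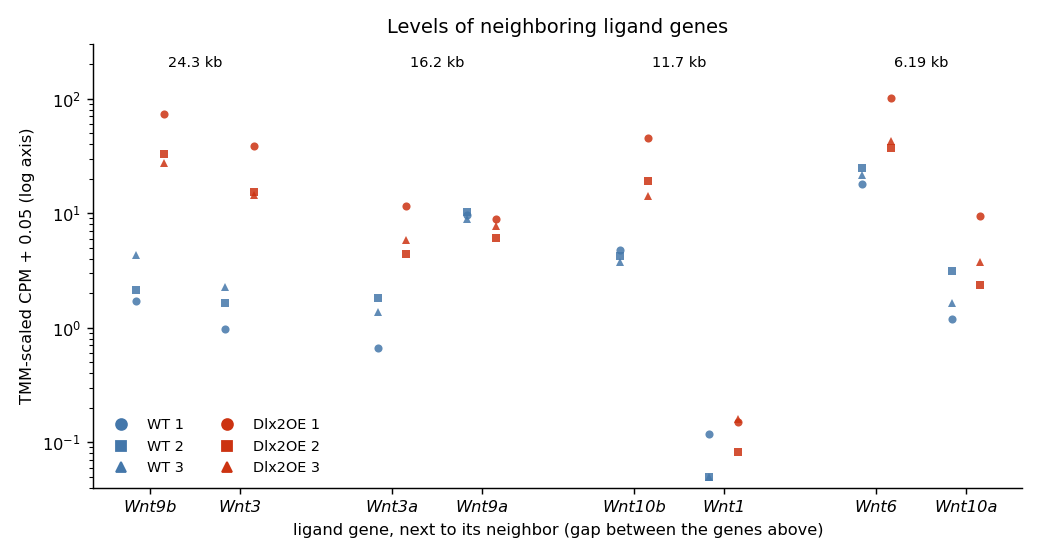
TMM-scaled CPM plus 0.05 on a log axis (y axis) of the 4 neighboring ligand pairs (x axis), with the distance between the genes of a pair printed above it. Blue symbols are WT, red symbols Dlx2OE, and circles, squares and triangles are samples 1, 2 and 3. In the pair at the left, Wnt9b and Wnt3, both genes are higher in every Dlx2OE sample, whereas Wnt9a next to Wnt3a lies slightly lower in Dlx2OE (6.05 to 8.78 CPM) than in WT (8.85 to 10.2 CPM) and Wnt1 next to Wnt10b lies near the floor.

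Promoter sequence was read for the members from RefSeq on GRCm38.p6, as the 250 bases before the annotated start. It was held for 37 of the 58 members, among them 8 of the 14 called. RefSeq and GENCODE do not always place the start alike: 169 of the 250 bases of the Dkk1 window, its match included, 25 bases of the Wnt3 window and the whole window of Fzd10 lie inside the gene as GENCODE draws it, and that of Wnt9b lies outside. These windows were searched on both strands for the Tcf/Lef site CTTTGAT or CTTTGAA, the sequence through which β-catenin target genes are bound, and for the homeodomain core TAATTA or TAATTG, bound by Dlx proteins among many others. The Tcf/Lef letters were found in 3 members, Dkk1, Wnt11 and Wnt5b, and the homeodomain letters in 1, Wnt8b. Over 21263 mouse promoters of the same length, 6.73% hold either Tcf/Lef form (2.82% and 4.05% for each) and 10% either homeodomain form (4.31% and 6.28%). Of the higher members with a sequence, Dkk1 alone held a match, so that for Wnt3, Wnt9b and Wnt3a the absence concerns only these letters in this window. The promoters of the higher members had a GC content of 60.8 to 87.6%, with a median of 72%, against a median of 65.2% over the members and 55.6% over all promoters. Dkk1 is shown for its match, in capitals, and the others for the ligand genes described above:
Dkk1 (chr19:30549497-30549746, reverse strand): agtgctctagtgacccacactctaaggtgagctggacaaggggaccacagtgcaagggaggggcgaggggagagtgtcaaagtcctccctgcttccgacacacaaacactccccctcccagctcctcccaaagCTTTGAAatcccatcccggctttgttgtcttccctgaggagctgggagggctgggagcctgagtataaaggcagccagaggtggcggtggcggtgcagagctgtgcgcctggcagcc
Wnt9b (chr11:103749822-103750071, reverse strand): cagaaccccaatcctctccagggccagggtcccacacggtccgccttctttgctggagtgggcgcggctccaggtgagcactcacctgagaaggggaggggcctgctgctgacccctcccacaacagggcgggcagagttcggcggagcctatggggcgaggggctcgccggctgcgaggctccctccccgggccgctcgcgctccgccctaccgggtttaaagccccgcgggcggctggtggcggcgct
Wnt3 (chr11:103773925-103774174, forward strand): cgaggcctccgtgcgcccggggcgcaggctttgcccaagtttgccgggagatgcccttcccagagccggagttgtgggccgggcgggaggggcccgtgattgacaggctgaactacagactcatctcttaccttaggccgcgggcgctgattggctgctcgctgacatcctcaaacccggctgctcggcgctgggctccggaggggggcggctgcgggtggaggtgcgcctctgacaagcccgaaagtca
Wnt3a (chr11:59290752-59291001, reverse strand): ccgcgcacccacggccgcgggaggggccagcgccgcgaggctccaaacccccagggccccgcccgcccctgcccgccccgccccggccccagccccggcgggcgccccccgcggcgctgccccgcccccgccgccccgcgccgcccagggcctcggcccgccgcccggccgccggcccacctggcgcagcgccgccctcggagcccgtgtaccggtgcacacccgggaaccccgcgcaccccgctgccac

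Among the 10 Frizzled receptors, Fzd10 and Fzd3 were called higher and Fzd8 lower. Fzd10, a receptor of the β-catenin branch (chromosome 5, 128600844 to 128604093, forward strand), was at 13.6, 19.5 and 22.3 CPM in WT and at 138, 66.1 and 63.1 CPM in Dlx2OE, a log2 fold change of 2.27 ± 0.33 (adjusted p = 0.0138). Its share of the summed Frizzled level per kilobase went from 3.10% to 13.1%, the seventh highest in WT and the third in Dlx2OE. Fzd3, a receptor of the planar polarity branch with roles in axon guidance (chromosome 14, 65192449 to 65262463, reverse strand), was at 101, 103 and 127 CPM in WT and at 198, 159 and 163 CPM in Dlx2OE, a log2 fold change of 0.65 ± 0.14 (adjusted p = 0.0348). Neither receptor overlapped between genotypes. Fzd8 was at 36.8, 44.4 and 52.6 CPM in WT and at 25.6, 26.8 and 30.6 CPM in Dlx2OE, a log2 fold change of -0.69 ± 0.15 (adjusted p = 0.0380). Its genotypes did not overlap either, with all Dlx2OE samples below the lowest WT sample. Fzd3 was no longer called with a correction for gene length and GC content (adjusted p = 0.111), and Fzd8 was not called with scaling by library size alone (adjusted p = 0.0668). Without WT sample 2 the adjusted p was 0.0816 for Fzd10, 0.150 for Fzd3 and 0.138 for Fzd8. Fzd3 and Fzd8 were also not called without WT sample 1 (0.114 and 0.0517), Dlx2OE sample 2 (0.0808 and 0.118) or Dlx2OE sample 3 (0.0761 and 0.0705), and Fzd10 was not called without WT sample 1 (0.0572).

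The most abundant Frizzleds per kilobase did not change detectably. Fzd2 made up 47.4% of the summed Frizzled level in WT and 45.0% in Dlx2OE, and its CPM was 320, 295 and 339 in WT and 349, 335 and 328 in Dlx2OE (log2 fold change 0.087 ± 0.10). Fzd1 was at 131, 126 and 186 CPM in WT and at 131, 123 and 147 CPM in Dlx2OE. In both genes the genotypes overlapped, as they did in Fzd7, at 86.9 to 124 CPM in WT and 100 to 113 CPM in Dlx2OE. The remaining Frizzleds, Fzd4, Fzd5, Fzd6 and Fzd9, had log2 fold changes of -0.42 to -0.75, and none was called. The summed level of the 10 receptors overlapped between genotypes, at 166 to 208 and 195 to 220 CPM per kb.

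None of the 5 co-receptors and alternative receptors and neither of the secretion genes was called. Ror2, the receptor tyrosine kinase that receives Wnt5a, came closest, at 52.9, 55.1 and 71.3 CPM in WT and at 76.5, 74.4 and 84.5 CPM in Dlx2OE (log2 fold change 0.39 ± 0.13). Its samples did not overlap. Lrp5 and Lrp6, the β-catenin co-receptors, had log2 fold changes of -0.15 ± 0.13 and 0.26 ± 0.14, and Ror1, the paralog of Ror2, of 0.12 ± 0.11. Ryk, a Wnt receptor with an inactive kinase domain and the most abundant of these genes per kilobase, was at 126, 137 and 132 CPM in WT and at 164, 119 and 118 CPM in Dlx2OE, on both sides of the WT range (log2 fold change 0.020 ± 0.14). Wls, which every ligand needs to leave the cell, was at 226, 216 and 192 CPM in WT and at 252, 203 and 177 CPM in Dlx2OE (log2 fold change -0.0030 ± 0.15). Porcn, the acyltransferase, was at 9.67, 10.3 and 8.50 CPM in WT and at 8.94, 13.5 and 11.6 CPM in Dlx2OE. Both secretion genes overlapped between genotypes.

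In the R-spondin axis Znrf3 alone was called. Znrf3, a membrane ubiquitin ligase that removes Frizzleds and is itself a β-catenin target (chromosome 11, 5276324 to 5444847, reverse strand), was at 18.4, 21.6 and 24.4 CPM in WT and at 54.5, 33.8 and 33.3 CPM in Dlx2OE, a log2 fold change of 0.92 ± 0.21 (adjusted p = 0.0450). The genotypes did not overlap, but this call was the closest to the threshold. It was lost in 5 of the 6 fits without 1 sample, at adjusted p of 0.137 without WT sample 1, 0.164 without WT sample 2, 0.0514 without WT sample 3, 0.0782 without Dlx2OE sample 2 and 0.0625 without Dlx2OE sample 3, and also with the length and GC correction (0.0746). Rnf43, its paralog, had a wide range in Dlx2OE, at 27.8, 8.69 and 10.9 CPM against 14.9, 23.5 and 18.8 CPM in WT. Lgr6, an R-spondin receptor of epithelial stem cells, was at 6.49 to 7.86 CPM in WT and at 49.1, 13.9 and 12.0 CPM in Dlx2OE, without overlap and not called (log2 fold change 1.76 ± 0.51, adjusted p = 0.0744). Lgr4, the most abundant of these receptors per kilobase, was at 81.9, 87.8 and 102 CPM in WT and at 81.9, 67.6 and 72.8 CPM in Dlx2OE (log2 fold change -0.29 ± 0.12), and Lgr5 had a log2 fold change of -0.52 ± 0.22. Neither was called. Of the secreted R-spondins, Rspo3 was called lower by DESeq2 alone, at 49.3, 31.7 and 36.1 CPM in WT and 25.4, 29.3 and 21.0 CPM in Dlx2OE (log2 fold change -0.63 ± 0.19, adjusted p = 0.0823 with edgeR and 0.0239 with DESeq2). Rspo1 and Rspo2 overlapped, and Rspo4, whose counts were 3, 10 and 14 (WT) and 24, 10 and 8 (Dlx2OE), was not tested.

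The secreted ligand-binding modulators were the most abundant class per kilobase in WT and the class with the most called falls. Sfrp2, a soluble Frizzled-like decoy (chromosome 3, 83766321 to 83774316, forward strand), was at 527, 444 and 625 CPM in WT and at 130, 193 and 249 CPM in Dlx2OE, a log2 fold change of -1.48 ± 0.24 (adjusted p = 0.0188). Cthrc1, a secreted glycoprotein that stabilizes the complex of Wnt, Frizzled and Ror2 (chromosome 15, 39076932 to 39087121, forward strand), was at 40.5, 42.1 and 38.6 CPM in WT and at 13.5, 15.8 and 16.6 CPM in Dlx2OE, a log2 fold change of -1.40 ± 0.12 (adjusted p = 0.00354). Both genes were highest in Dlx2OE sample 3 within that genotype, and both were apart from WT in every sample. Cthrc1 was the only member called in all 6 fits without 1 sample, at an adjusted p of at most 0.0322. Sfrp2 was not called without WT sample 1 (0.0639), WT sample 2 (0.0663) or Dlx2OE sample 2 (0.0694). Exons of Gm26771 overlap 16.1% of the exon sequence of Sfrp2, and reads of the overlap cannot be assigned without strand, which is not given in the sources used here.

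Of the other Sfrp genes and Frzb, none was called by edgeR, and Sfrp1 and Frzb had log2 fold changes below 0 while Sfrp4 and Sfrp5 had values above 0. Sfrp1 was at 214, 218 and 269 CPM in WT and at 102, 164 and 177 CPM in Dlx2OE (log2 fold change -0.67 ± 0.21, adjusted p = 0.0858), and DESeq2 called it lower (adjusted p = 0.00975). Frzb was at 137 to 175 CPM in WT and at 70.6 to 137 CPM in Dlx2OE (log2 fold change -0.53 ± 0.22, adjusted p = 0.162). Wif1, a ligand-binding antagonist of another protein family, had the opposite sign, at 5.84 to 11.1 CPM in WT and 63.5, 13.9 and 13.9 CPM in Dlx2OE (log2 fold change 1.94 ± 0.61, adjusted p = 0.0876). Sfrp4 (0.640 ± 0.453 CPM in WT and 1.35 ± 0.53 in Dlx2OE, SD, log2 fold change 1.07 ± 0.54) and Sfrp5 (0.771 ± 0.552 and 1.27 ± 1.27 CPM, log2 fold change 0.71 ± 0.81) had the lowest levels of the class, and both overlapped between genotypes. The class sum was 376, 333 and 422 CPM per kb in WT and 140, 186 and 208 CPM per kb in Dlx2OE, 0.472 times as much, without overlap. The summed level of the Sfrp genes and Frzb over that of the 19 ligands was 8.02, 5.03 and 7.01 for WT samples 1 to 3 and, in the same order, 0.492, 1.71 and 1.89 for the Dlx2OE samples, and these ratios concern transcripts of a whole tissue, in which ligand and decoy may come from different cells. In bulk tissue, fewer cells of a type and less RNA per cell cannot be told apart.

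Dkk1, the secreted Lrp5 and Lrp6 antagonist and a known β-catenin target (chromosome 19, 30545863 to 30549665, reverse strand), was called higher in its class, whose other members were not called. It was at 7.07, 7.76 and 5.29 CPM in WT and at 50.7, 27.3 and 23.0 CPM in Dlx2OE, a log2 fold change of 2.33 ± 0.31 (adjusted p = 0.0116). All Dlx2OE samples lay above all WT samples. Its share of the summed Dickkopf and Kremen level went from 6.73% to 21.1%. Without WT sample 1 or 2 the adjusted p was 0.0508 or 0.0657. Kremen2, a receptor through which Dkk1 acts, was called by DESeq2 alone, at 12.2, 17.1 and 12.6 CPM in WT and at 50.1, 20.7 and 24.3 CPM in Dlx2OE (log2 fold change 1.18 ± 0.33, adjusted p = 0.0670 with edgeR and 0.00151 with DESeq2). Dkk2 and Dkk3 were the most abundant genes of the class per kilobase in WT, and both overlapped. Dkk2 was at 44.0, 33.0 and 61.7 CPM in WT and at 47.9, 47.3 and 49.3 CPM in Dlx2OE, and Dkk3 at 38.2, 42.4 and 44.3 and at 43.6, 26.5 and 27.5 CPM. Dkk4 was at 1.44, 0.133 and 0.0641 CPM in WT and at 9.75, 2.55 and 1.55 CPM in Dlx2OE, and its wide error kept it uncalled (log2 fold change 3.09 ± 1.07, adjusted p = 0.109). Kremen1 had a log2 fold change of 0.44 ± 0.19.

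Markers of other cell types moved between samples, and the members differed in how they followed them. The summed level of 20 markers of facial and oral surface epithelium was 1070, 1930 and 1420 CPM for WT samples 1 to 3, whereas Dlx2OE samples 1 to 3 were at 2330, 771 and 791 CPM, so that Dlx2OE sample 1 held the highest epithelial level of all samples and the other Dlx2OE samples the lowest. Of the 20 markers none was called higher and 3 were called lower, Krt8, Krt18 and Cldn7, beside 2.99% and 3.46% of all genes. No marker of this list was at or under 3 counts. The markers did not move as 1 block: Krt5, of basal epithelium, was at 42.7, 91.7 and 79.5 CPM in WT and at 538, 121 and 147 CPM in Dlx2OE, and Cdh1 at 93.3, 164 and 144 and at 158, 64.5 and 69.7 CPM. All 11 members called higher, and uncalled ones such as Wnt6 and Lgr6, were higher in Dlx2OE samples 2 and 3 than in any WT sample. The summed epithelial level of those Dlx2OE samples was below that of every WT sample.

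Divided by the epithelial level, several ligands became nearly constant within Dlx2OE. Wnt3 was at 0.865, 0.827 and 1.56 CPM per 1000 CPM of epithelial markers in WT and at 16.5, 19.7 and 18.3 in Dlx2OE, and its highest Dlx2OE sample was 1.19 times the lowest, against 2.65 times for CPM alone. Wnt6 was at 16.7, 12.8 and 15.1 in WT and at 43.2, 48.2 and 53.6 in Dlx2OE, 1.24 times from lowest to highest against 2.71 times for CPM. Wnt4, which overlapped as CPM, was at 21.4, 26.8 and 24.9 in WT and at 36.0, 34.3 and 44.5 in Dlx2OE per 1000 epithelial CPM. The spread within Dlx2OE narrowed in this way in 10 of the 16 tested ligands and in 18 of the 54 tested members, among them 8 of the 11 called higher and none of the 3 called lower. The share of all genes that narrowed was not counted, so these counts have no background beside them. Dlx2OE sample 1 was highest both in the epithelial level and in all 11 members called higher, which by arithmetic favors a narrower ratio. The 3 members called lower were lowest in that sample, so their ratio had to widen. The split between these groups therefore says nothing about where the members are expressed. The spread did not narrow in Wnt5a (1.88 times for CPM, 1.93 times for the ratio), nor in Fzd3, Znrf3 or the co-receptors. The epithelial level itself differed by 3.02 times between the Dlx2OE samples. With this level as a covariate, a fit chosen after the data were seen, all 14 called members were called again, and 19 members were called higher and 6 lower, with a background of 3.59% and 4.53% of all genes. The epithelial level used here includes the 3 markers called lower in Dlx2OE. The covariate fit, on 6 samples, cannot decide the part of the epithelial level in the results, which was not tested.

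**Figure D5:**
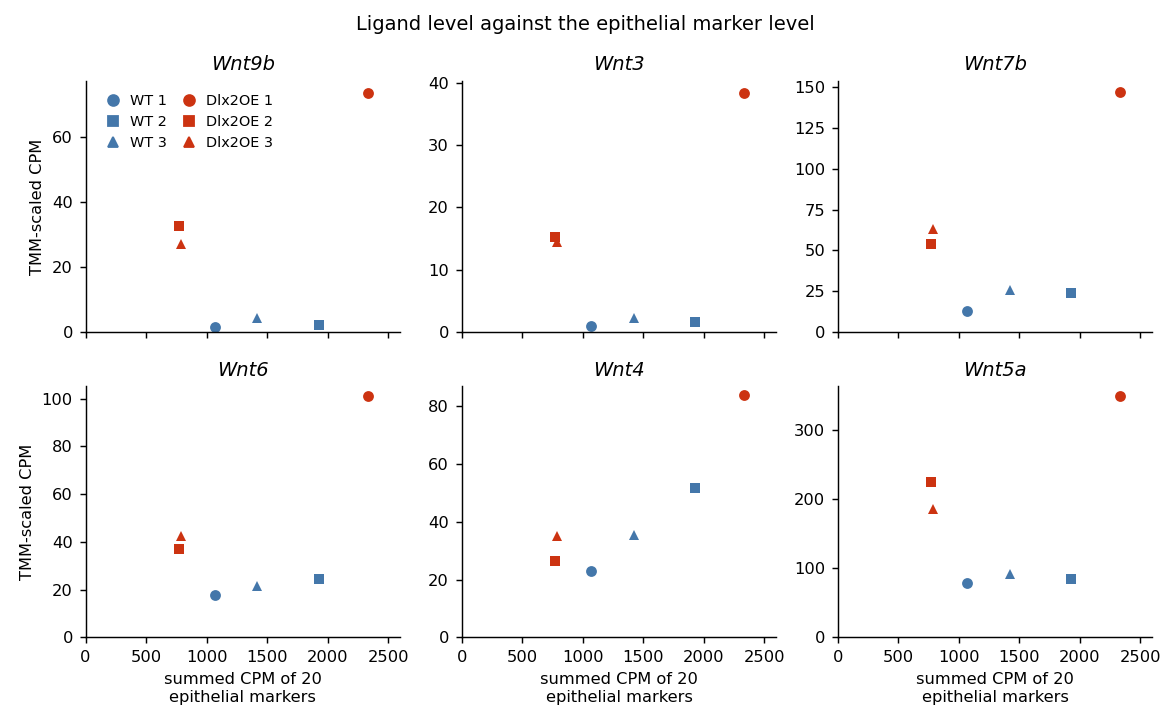
TMM-scaled CPM of 6 ligands (y axes) against the summed CPM of 20 epithelial markers (x axes), 1 point per sample, blue for WT and red for Dlx2OE, with circles, squares and triangles for samples 1, 2 and 3. In Wnt9b and Wnt3 the Dlx2OE points lie far above the WT points at epithelial levels of 771, 791 and 2330, while in Wnt4 both genotypes overlap in CPM.

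Other marker lists moved as well. Neuron markers summed to 166 to 460 CPM in WT and to 295, 730 and 1460 CPM in Dlx2OE samples 1 to 3, with none of 13 tested called. Crest mesenchyme markers summed to 1980 to 2350 CPM in WT and 2430 to 2900 CPM in Dlx2OE, with 3 of 15 called higher (Twist1, Twist2 and Alx4) and 2 lower (Meox2 and Tbx22). The background, here and for the lists below, was 2.99% higher and 3.46% lower of all genes tested. Erythroid markers (3280 to 4350 and 1960 to 2540 CPM, Hba-a1, Hba-a2 and Alas2 of 11 called lower) and macrophage markers (90.1 to 99.7 and 57.9 to 64.0 CPM, C1qa and C1qb of 10 called lower) were lower in every Dlx2OE sample, while endothelial (341 to 479 and 248 to 369 CPM, Emcn of 10 called lower), forebrain (23.8 to 125 and 34.2 to 98.1 CPM, Emx2 of 10 tested called higher), glial, muscle, and cartilage and bone markers overlapped. Only Rax of the forebrain list and Foxd3 of the glial list were at or under 3 counts in every sample. The part of these cell types in the levels of the members was not tested.

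Beyond the members, 61 other genes of the pathway were matched and tested, of which 7 were called higher and 1 lower, with a median log2 fold change of 0.19. Over all genes tested, 2.99% were called higher and 3.46% lower, with a median of 0.0028. The cytoplasmic transduction genes had no call among 17, with a median of 0.12. Of 13 nuclear factors and cofactors, Lef1 (log2 fold change 3.23 ± 0.17) and the corepressor Tle3 (0.58 ± 0.11) were called higher. Lef1, which carries β-catenin to its targets and is a target itself, was at 14.1, 13.2 and 14.6 CPM in WT and at 161, 129 and 104 CPM in Dlx2OE. Of 16 targets and feedback genes, 4 were called higher: Axin2, of the destruction complex (1.77 ± 0.18), Nkd1, an inhibitor of Dishevelled (2.07 ± 0.25), Apcdd1, a membrane Wnt inhibitor (2.51 ± 0.30), and Tnfrsf19 (1.88 ± 0.26). Axin2 was at 35.8, 42.5 and 48.4 CPM in WT and at 181, 132 and 119 CPM in Dlx2OE, without overlap. Of 15 planar polarity genes, Daam2 was called higher (0.82 ± 0.14) and the glypican Gpc3 lower (-0.92 ± 0.20). Lef1 and Axin2 were called in all 6 fits without 1 sample, and without WT sample 2 they were the 2 higher calls on this list (0.216% of all genes). Without WT sample 1 there were 4 higher calls on the list (0.424% of all genes). Without WT sample 3 there were 12, beside 793 of 18171 genes. Gpc3 was called in 1 of the 6 fits.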

How the data were processed

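RNA of 3 WT and 3 Dlx2OE samples was sequenced by the authors, who mapped the reads to mm10 with STAR 2.7.3a, counted them per gene with HTSeq 0.12.4 and deposited 1 table of raw counts per sample. The annotation release and the strand setting are not given in the sources used here. Symbols, positions and exon lengths came from GENCODE M21, which held 53706 of the 53801 identifiers. The summary lines for reads outside genes (16.8 to 25.3% of all reads, non-unique and ambiguous ones included) stayed out of library sizes and tests.

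Counts were tested in edgeR 4.0.16 (R 4.3.3) with genotype alone: filterByExpr with a minimum count of 10, TMM scaling and the quasi-likelihood F test, with Benjamini-Hochberg adjustment over 17514 genes at a threshold of 0.05. The SE is the log2 fold change over the square root of F. CPM per kb divides by merged exon length. DESeq2 1.42.0 was run on all genes with its own filter. The replicate numbers were not treated as pairs, since deviations of same-numbered samples correlated at -0.0718, -0.211 and 0.0731. Members with values in each sample are those called by edgeR or by DESeq2 and the 2 most abundant per kilobase of each class in WT, with Wnt4, Rnf43, Lgr6, Wif1 and Dkk4 added after their values were seen. The scripts were tested on simulated data, and plots were made in Python 3.11.15 with matplotlib 3.10.9. The members, the pathway lists and the marker lists were chosen with earlier results of these data known. Of 63 other pathway genes listed, 61 matched a symbol.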

Additional observations from a re-analysis of the deposited data

Results flagged for a closer look

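Reads in no annotated gene lay outside the measurement used above, and their share was above every WT sample in each Dlx2OE sample: 5.75% in Dlx2OE sample 1, 7.81% in sample 2 and 14.7% in sample 3, against 5.03, 5.43 and 5.25% in WT samples 1 to 3. All 11 members called higher were highest in Dlx2OE sample 1, which had the lowest share of the 3, and all 3 members called lower were highest in Dlx2OE sample 3, which had the highest. How many of all genes had the same order was not counted. Dlx2OE sample 1 also had the highest summed level of epithelial markers, 2330 CPM. The part of the read share in these levels was not tested.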

How the results depend on the processing

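With 3 samples per genotype, the calls rest on a few libraries. Over the fits that left out 1 sample each, 0 to 13 members were called higher and 1 to 5 lower, 0 to 9 higher and 1 to 2 lower past a log2 fold change of 1 in size, the median log2 fold change of the members was 0.054 to 0.20 (the highest without WT sample 3), and the other pathway genes had 2 to 12 higher and 0 to 2 lower calls. Of the 17902 to 18194 genes in these fits, 39 to 975 were called higher and 40 to 1298 lower. Without any filter on low counts 17 members were called higher, 15 of them past 1, and 5 lower, with 12 pathway genes higher. Over all 33556 genes of that fit, 865 were higher and 1179 lower. With the epithelial level as a covariate, chosen after the data were seen, the counts were 19, 16 and 6, with 11 pathway genes higher (3.59% higher and 4.53% lower of all genes). DESeq2 called 5 members lower and 13 pathway genes higher (7.21% lower and 5.54% higher of all genes). With the length and GC correction and the replicate block together, 0 pathway genes were lower, beside 372 of 17514 genes. The replicate block alone gave 8 higher and 4 lower members, without Wnt3a, Wnt7b, Fzd3 and Znrf3 among the calls. That fit called 407 of 17514 genes higher and 554 lower. RLE factors, library size alone, at least 10 counts in every sample and removal of mitochondrial and haemoglobin genes kept these counts within 1.5 times. The cause of these moves was not tested.

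Of the 29 members given sample by sample under the naming rule, uncalled ones near 0 changed sign and no called one did. Fzd1 was at -0.26 to 0.049 over the fits without 1 sample, above 0 without WT sample 3. Ryk was at -2.0e-04 without a filter and at -0.16 to 0.10 without 1 sample, below 0 without WT sample 1 (-0.016) or Dlx2OE sample 1 (-0.16). Wls was at 0.0030 with RLE factors, 0.066 with library size alone, 0.0017 with at least 10 counts in every sample, 0.050 with the epithelial covariate and -0.16 to 0.11 without 1 sample (0.042 and 0.0051 without WT samples 1 and 2, 0.020 and 0.11 without Dlx2OE samples 2 and 3). Dkk2 was at -0.14 to 0.31 without 1 sample, below 0 without WT sample 2.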
